A study of Mus musculus with 20 samples.

Results

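The miRNAs described here are miR-451, the 2 arms of miR-144 and the 2 arms of miR-486, a set used to gauge how much blood a tissue sample holds. They were measured by small RNA sequencing of mouse skin. The entries were taken by name: every mature miRNA called miR-451, miR-144 or miR-486, whichever the arm, which gave 5 of the 1137 mature miRNAs counted. All 5 passed the filter on low counts, which left 850 miRNAs tested. The 20 libraries came from skin biopsies of the inbred strain FVB/N and fell into 4 groups of 5. Healthy skin had been treated with acetone. The other groups had been treated with DMBA, a mutagen, and PMA, a phorbol ester that promotes tumours: hyperplastic skin, which is thickened but bears no tumour, papillomas, which are benign, and squamous cell carcinomas of the skin (cSCC). In any comparison with healthy skin the effects of treatment and of lesion cannot be told apart. The sources used here give no doses, treatment times or ages. Nor do they say whether biopsies came from separate mice, so the p-values measure only how these samples spread, which may be technical. Libraries are called by group and the number in their label.

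As background, miR-451 and miR-144 are cut from one primary transcript that the transcription factor GATA1 switches on as red cells mature. The miR-451 hairpin is too short for Dicer and is sliced by Argonaute 2 instead, so it gives a single product, whereas the miR-144 hairpin gives a 5p and a 3p arm. Mature red cells have no nucleus but keep these miRNAs, so blood left in a biopsy brings them along. miR-486 lies in an intron of Ank1, the gene of red cell ankyrin, and is also made in striated muscle from a muscle promoter of the same gene. It therefore marks blood less cleanly where a biopsy includes muscle.

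RefSeq (build GRCm38.p6) gave sequences for 3 of the 5 entries, shown because the results turn on how these products of a single transcript compare. In each mature sequence the capitals mark the seed, bases 2 to 8, which pairs with targets. In the hairpin the capitals mark the mature miRNA.
miR-451 (RefSeq mmu-miR-451a): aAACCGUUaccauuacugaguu
miR-451 hairpin (Mir451a): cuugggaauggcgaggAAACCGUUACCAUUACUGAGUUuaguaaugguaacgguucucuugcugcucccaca
miR-144-3p: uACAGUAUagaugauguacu
miR-144-5p: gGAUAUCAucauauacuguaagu
The mature lengths are 22 bases for miR-451, 20 for miR-144-3p and 23 for miR-144-5p. The 3 seeds differ from each other, and 0 of the other mature sequences among the 1679 names in the table share any of them. miR-101a-3p shares bases 2 to 7 with miR-144-3p, but not the whole seed. In the miR-451 hairpin the mature strand runs through the 5′ arm into the loop. The deposited table places, on build mm9, miR-144-5p at chr11:77886511-77886535, miR-144-3p at chr11:77886548-77886569 and miR-451 at chr11:77886687-77886710, which puts all 3 within 200 bases. It places miR-486-5p at chr8:24253058-24253081 and miR-486-3p at chr8:24253100-24253122.

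The 5 entries differ widely in abundance, and one dominates. Levels are in CPM, a count brought to a common library size: the library's mature miRNA total times a TMM factor. TMM factors assume that most miRNAs do not differ between libraries. By mean CPM over the 20 libraries miR-451 ranked 34 of the 1137 miRNAs at 5672 CPM. miR-144-3p ranked 220 at 117 CPM, miR-144-5p 223 at 115 CPM, miR-486-3p 441 at 14.6 CPM and miR-486-5p 512 at 9.10 CPM. An entry outside the 5 with the same mature sequence as miR-486-5p, miR-3107-5p, averaged 192 CPM and is described further on. Of the summed counts of the 5, miR-451 held 92.9% to 97.1% in each library, with a median of 96.0%. The library totals ran from 1270588 to 10117810 counts and the mature miRNA totals from 1060615 to 6904298. A single library gave 5732 to 65053 counts of miR-451, 58 to 1218 of miR-144-3p and 67 to 910 of miR-144-5p. It gave only 6 to 171 counts of miR-486-3p and 8 to 73 of miR-486-5p, so counting error is largest for the miR-486 arms. The tissue label was checked with a defining marker: the keratinocyte miRNA miR-205-5p averaged between 71358 CPM in cSCC and 114973 CPM in healthy skin.

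miR-451, the main red cell miRNA, did not differ between any groups beyond the spread of their libraries with TMM factors, and was higher in papillomas than in healthy skin under other scalings given further on. In healthy skin it stood at 3118, 2173, 5906, 6270 and 6742 CPM in libraries 2, 3, 4, 5 and 7. In hyperplastic skin it stood at 8264, 1838, 2595, 12290 and 5374 CPM in libraries 1, 2, 5, 7 and 8. The highest and the lowest of all 20 values were thus both in hyperplastic skin, and they lay 6.69-fold apart. In papillomas 1, 3, 4, 5 and 6 the level was 10694.5, 2618, 9810, 6562 and 4893 CPM. In cSCC 1, 2, 3, 4 and 6 it was 7490, 5079, 5026, 3891 and 2802 CPM. All 4 groups overlapped, and each held libraries that differed by at least 2.67-fold. The group means were 4842 ± 2054 CPM in healthy skin, 6072 ± 4300 CPM in hyperplastic skin, 6916 ± 3367 CPM in papillomas and 4858 ± 1744 CPM in cSCC (SD, n = 5 each). By edgeR's quasi-likelihood test, adjusted over all 850 miRNAs by the Benjamini-Hochberg method, the log2 fold change was 0.00 ± 0.43 (SE) in cSCC against healthy skin, with an adjusted p of 0.994. It was 0.51 ± 0.43 in papillomas against healthy skin (adjusted p = 0.335) and 0.33 ± 0.43 in hyperplastic against healthy skin (adjusted p = 0.855). These p do not show that the levels were alike. In bulk samples, fewer red cells and less of the miRNA per cell cannot be told apart.

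**Figure D1:**
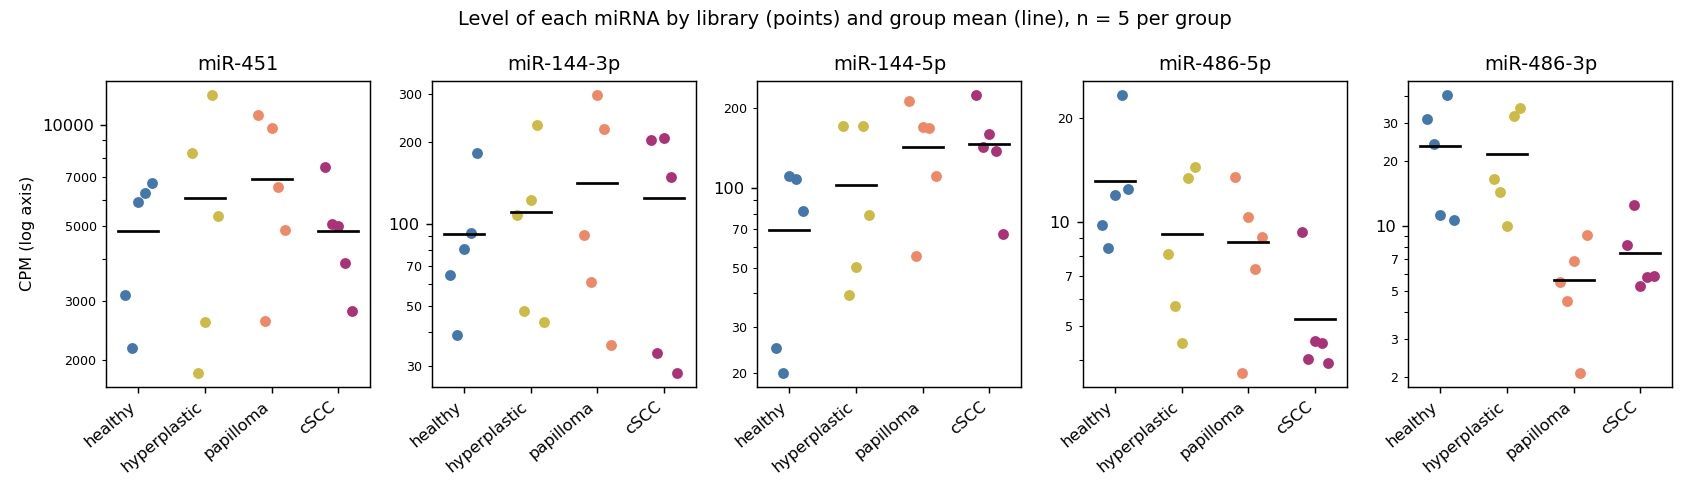
Level of each of the 5 miRNAs in every library (points, CPM on log axes that differ between panels), with the arithmetic group mean as a line (n = 5 per group). The 5 papilloma values of miR-486-3p lie below all 5 values of healthy and of hyperplastic skin, while the groups overlap for miR-451.

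miR-144-5p, the strand opposite the miR-144 guide, had its highest means in the tumours, but the difference did not pass the test. It stood at 25.0, 20.1, 111, 108 and 82.1 CPM in the healthy libraries in the order above and at 172, 39.3, 50.2, 172 and 79.0 CPM in the hyperplastic ones. The papillomas gave 214, 55.5, 170, 168 and 111 CPM, and the cSCCs gave 225, 143, 160, 138 and 67.0 CPM. In papillomas and in cSCC, 4 of 5 libraries lay above every healthy library, and the remaining tumours, papilloma 3 and cSCC 6, lay within the healthy range. Papilloma 6, at 111.1 CPM, was barely above healthy 4, at 110.6 CPM. The log2 fold change was 1.09 ± 0.48 in cSCC against healthy skin (adjusted p = 0.0612) and 1.06 ± 0.48 in papillomas against healthy skin (adjusted p = 0.0725). The healthy libraries are the same in both comparisons. This gap moved past the threshold in some fits: without healthy 5 the cSCC value was 1.33 (adjusted p = 0.0364), and without papilloma 3 the papilloma value was 1.22 (adjusted p = 0.0425).

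miR-144-3p, the arm with the established targets in red cell precursors, varied widely between libraries of a group. Healthy skin had 64.9, 39.0, 80.8, 92.5 and 181 CPM and hyperplastic skin 108, 47.9, 122, 230 and 43.5 CPM. Papillomas had 90.6, 60.8, 297, 223 and 35.7 CPM and cSCCs 203, 33.4, 207, 148 and 28.4 CPM. Tumours thus held both the highest value, in papilloma 4, and the lowest, in cSCC 6, and all groups overlapped. The log2 fold change was 0.44 ± 0.58 in cSCC against healthy skin (adjusted p = 0.546), 0.63 ± 0.58 in papillomas (adjusted p = 0.381) and 0.27 in hyperplastic skin (adjusted p = 0.935), each against healthy skin.

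miR-486-3p was the member that changed most: it fell in both kinds of tumour. Papillomas had 5.48, 4.49, 6.89, 2.09 and 9.07 CPM, and cSCCs had 8.21, 12.5, 5.29, 5.82 and 5.87 CPM. Hyperplastic skin had 16.4, 14.3, 9.98, 32.3 and 35.2 CPM, and healthy skin had 31.4, 23.99, 11.2, 40.5 and 10.7 CPM. All 5 papillomas lay below all healthy and all hyperplastic libraries, while among the cSCCs only cSCC 2 reached into either range. The log2 fold change was -2.10 ± 0.45 in papillomas against healthy skin (adjusted p = 0.000764) and -1.98 ± 0.45 against hyperplastic skin (adjusted p = 0.00232). In cSCC it was -1.64 ± 0.43 against healthy skin (adjusted p = 0.00312) and -1.51 ± 0.43 against hyperplastic skin (adjusted p = 0.00622). Leaving out any 1 library of the groups compared ended none of these 4 calls. Scaling by the abundant miRNAs ended both cSCC calls, at -0.86 against healthy skin (adjusted p = 0.0922) and -0.82 against hyperplastic skin (adjusted p = 0.119).

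miR-486-5p (mmu-miR-486-5p in the table), the guide arm of miR-486, passed the test in 1 comparison. It had 9.32, 4.02, 4.53, 4.47 and 3.91 CPM in cSCC, against 9.79, 8.40, 11.9, 23.3 and 12.4 CPM in healthy skin. Of the cSCCs, 4 lay below every healthy library, and cSCC 1 lay within the healthy range. The log2 fold change was -1.31 ± 0.41 (adjusted p = 0.0103). Without healthy 5, the highest library, it was -1.002 (adjusted p = 0.0514), and with factors from the abundant miRNAs -0.57 (adjusted p = 0.21). Papillomas had 13.5, 3.67, 10.3, 7.32 and 9.07 CPM and hyperplastic skin 8.08, 5.73, 4.47, 13.4 and 14.4 CPM. Both overlapped healthy skin, and their log2 fold changes against it were -0.59 ± 0.40 (adjusted p = 0.222) in papillomas and -0.51 (adjusted p = 0.701) in hyperplastic skin.

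Counted together, few of the 5 passed in any comparison, and each call was a fall of a miR-486 arm. In papillomas against healthy skin 1 of 5 was called, where 44.7% of all tested miRNAs were called and 20.7% were called lower. In cSCC against healthy skin 2 of 5 were called, where 47.5% were called and 21.3% were called lower. Papillomas against hyperplastic skin gave 1 of 5 (38.4% of all, 17.1% lower) and cSCC against hyperplastic skin 1 of 5 (44.9% of all, 20.5% lower). In hyperplastic against healthy skin edgeR called 0 of 5 (0% of all tested miRNAs), with 0 at an unadjusted p under 0.05, and DESeq2 called 0, also with 0 at an unadjusted p under 0.05. In cSCC against papillomas edgeR and DESeq2 again called 0 of 5, with 0 at an unadjusted p under 0.05 in either, where edgeR called 11.5% of all. Across the 4 groups in 1 test, miR-486-3p passed (adjusted p = 0.000333) and miR-486-5p came next (adjusted p = 0.0548), where 56% of all passed. With 5 entries, 1 call is 20% of them and 2 are 40%, so these counts are too coarse to set the 5 apart from the shares called lower over all miRNAs. The groups did not overlap for 1 of 5, miR-486-3p, in papillomas against healthy skin (14.7% of all tested lay wholly lower) and against hyperplastic skin (12.2%). The median log2 fold change of the 5 was 0.00 in cSCC and 0.51 in papillomas against healthy skin, beside medians over all tested miRNAs of 0.35 and 0.40.

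The scaling of the libraries mattered for miR-451, for miR-144-5p and, as given above, for the cSCC calls of both miR-486 arms. Factors set from the 294 miRNAs with a mean of at least 50 CPM, in place of all tested miRNAs, moved the median log2 fold change of all miRNAs to 1.09 in papillomas and 1.07 in cSCC against healthy skin. All 5 values moved up with it. miR-451 in papillomas then reached 1.21 and passed (adjusted p = 0.0216), and so did miR-144-5p, at 1.74 in papillomas (adjusted p = 0.00576) and 1.81 in cSCC (adjusted p = 0.00375). Relative to the shifted median, miR-451 in papillomas lay 0.12 above all miRNAs under these factors and 0.11 above under the TMM factors. Total counts alone gave 1.14 for miR-451 in papillomas (adjusted p = 0.024). The TMM factors ran from 0.637 to 0.988 in healthy skin and from 1.002 to 1.67 in papillomas. They thus lowered every papilloma level relative to healthy skin, compared with total counts.

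**Figure D2:**
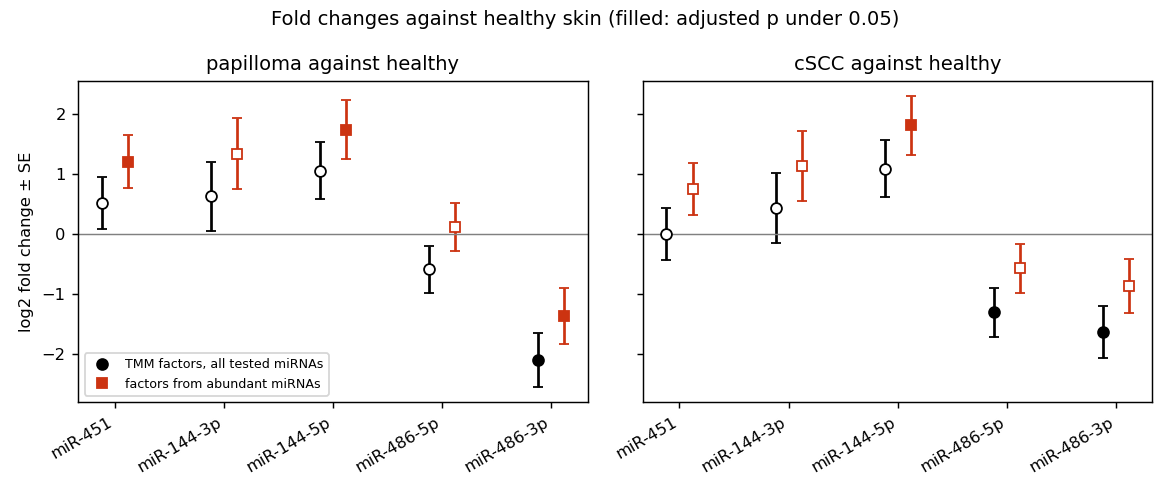
Log2 fold change ± SE of each miRNA in papillomas and in cSCC against healthy skin (n = 5 per group), with TMM factors over all tested miRNAs (circles) and with factors from abundant miRNAs only (squares), filled where the adjusted p is under 0.05. Each square lies above its circle, and miR-486-3p in papillomas is filled under both.

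Ratios within a library need no scaling between libraries, and they set the products of the shared primary transcript against each other. The ratio of miR-144-5p to miR-451, taken as log2 of (count + 0.5), was -5.07 ± 0.21 in cSCC, against -6.33 ± 0.53 in healthy skin (SD, n = 5 each). The 5 cSCC values, -5.38 to -4.82, all lay above the 5 healthy ones, -6.96 to -5.74. Papillomas averaged -5.56 ± 0.21 and hyperplastic skin -5.81 ± 0.29, so the means were ordered healthy, hyperplastic, papilloma, cSCC. The difference was 1.26 for cSCC minus healthy and 0.74 for cSCC minus hyperplastic (exact two-sided permutation p = 0.00794 for both, the smallest that 5 against 5 allows, and 0.0595 after adjustment over 30 comparisons). It was 0.77 for papilloma minus healthy and 0.48 for cSCC minus papilloma (exact permutation p = 0.0159, adjusted 0.0794). These differences missed the adjusted threshold, and the ratios were chosen after the levels had been seen. In counts, the median library held 33.3 reads of miR-451 per read of miR-144-5p in cSCC and 82.1 in healthy skin.

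The ratio of the other arm overlapped between all groups. For miR-144-3p to miR-451 the means lay between -5.86 ± 1.04 in papillomas and -5.68 ± 1.19 in cSCC, beside -5.72 ± 0.96 in hyperplastic and -5.77 ± 0.39 in healthy skin. All 6 differences between groups lay between -0.14 and 0.19, with exact permutation p adjusted over 12 comparisons of 0.944 each. The spread within groups was wide: papillomas 1 and 6 stood at -6.88 and -7.09, apart from -5.42, -5.05 and -4.88 in papillomas 3, 4 and 5, and cSCC 2 and 6 stood at -7.24 and -6.61, apart from -5.20, -4.60 and -4.71 in cSCC 1, 3 and 4. Hyperplastic skin spanned -6.94 in library 8 to -4.41 in library 5. The arm ratio rests on the same miR-144-3p counts and is given only as a description: cSCC 2 held 4.28 reads of miR-144-5p per read of miR-144-3p, papilloma 6 held 3.11, and papilloma 1 and cSCC 6 held 2.36 each, and hyperplastic 8 held 1.82. In the remaining tumours the arm ratio lay between 0.573 and 1.11.

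**Figure D3:**
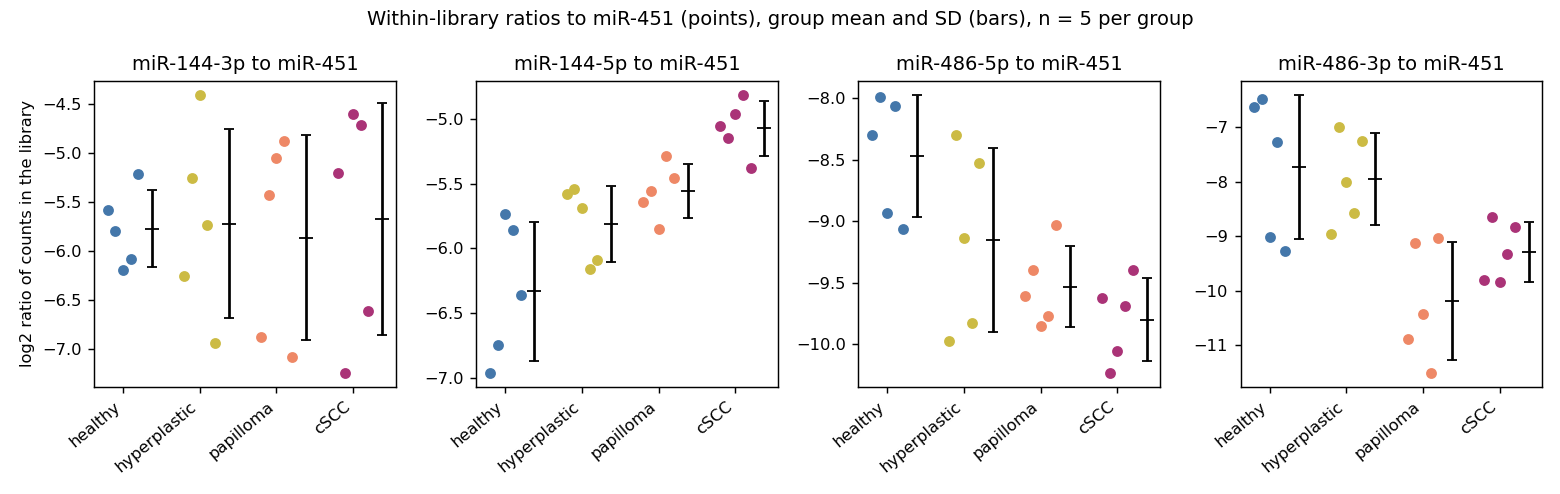
Log2 ratio of 4 miRNAs to miR-451 within each library (points), with group mean and SD (bars, n = 5 per group). The miR-144-5p ratio of all 5 cSCCs lies above all healthy libraries, the miR-486-5p ratio of all 5 cSCCs lies below them, and the miR-144-3p ratio overlaps between all groups.

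Against miR-451, miR-486-5p was lower in tumours in size, though not past the adjusted threshold with all libraries. Its log2 ratio to miR-451 was -9.80 ± 0.34 in cSCC, against -8.47 ± 0.50 in healthy skin, a difference of -1.33 (exact permutation p = 0.00794, the smallest possible, adjusted 0.0952 over 12 comparisons). The cSCC values, -10.2 to -9.40, did not overlap the healthy ones, -9.06 to -7.99. In papillomas the ratio was -9.53 ± 0.33, with a difference of -1.06 from healthy skin (exact permutation p = 0.0159, adjusted 0.0952). Without healthy 7 both differences passed, at -1.48 in cSCC and -1.21 in papillomas (exact permutation p adjusted 0.0476 each). Healthy 7 held the lowest healthy ratio, -9.06, the nearest to the tumours, so leaving it out widened the gap. Over 12 comparisons, 1 comparison alone at the smallest possible p cannot pass, so the miss and the pass both reflect how coarse the test is. For miR-486-3p the ratio to miR-451 in papillomas was -10.2 ± 1.09, against -7.95 ± 0.84 in hyperplastic skin, a difference of -2.24 (exact permutation p = 0.00794, adjusted 0.0595 over the 30 comparisons chosen after the levels had been seen). The 2 arms of miR-486 also stood differently to each other: 3p was above 5p in 3 of 5 healthy, 5 of 5 hyperplastic, 1 of 5 papilloma and 4 of 5 cSCC libraries. In hyperplastic skin the log2 ratio of 3p to 5p was tight, at 1.01 to 1.31. These arm counts leave out miR-3107-5p, described next, which has the same mature sequence as miR-486-5p. It held 91.1% to 98.0% of the summed counts of both 5p entries in each library. The arm order of the miR-486 entries thus does not show which arm was more abundant.

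Another miRNA of the deposited table shares its place and part of its sequence with miR-486. miR-3107, also named miR-486b, lies on the opposite strand of the same place, and its 5p arm has the same mature sequence as miR-486-5p. On mm9 the table places miR-3107-5p at chr8:24253098-24253121, where it shares 22 of the 23 bases of the miR-486-3p interval, and miR-3107-3p at chr8:24253058-24253079, where it shares 22 of the 24 bases of miR-486-5p. How reads with several matches were assigned and whether strand was used is not stated in the sources used here, so the counts of the 4 entries cannot be told apart with certainty. miR-3107-5p averaged 192 CPM and held 91.1% to 98.0% of the summed counts of both 5p entries in each library (median 95.6%). Its means were 248 ± 125 CPM in healthy skin, 206 ± 128 in hyperplastic skin, 166 ± 74.9 in papillomas and 147 ± 69.7 in cSCC (SD, n = 5 each). In cSCC against healthy skin its log2 fold change was -0.76 ± 0.43 (adjusted p = 0.149), short of the threshold. miR-3107-3p, at 11.3 CPM on average, fell by 2.43 ± 0.53 on the log2 scale in cSCC against healthy skin (adjusted p = 0.000592) and by 1.40 ± 0.50 in papillomas against healthy skin (adjusted p = 0.027).

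With each miR-3107 arm added to the miR-486 arm of the same side, an alternative chosen after these values were seen, the call of miR-486-5p ended. Its log2 fold change in cSCC against healthy skin became -0.79 (adjusted p = 0.127). miR-486-3p stayed called in all 4 comparisons of tumours with skin, at -1.98 in cSCC and -1.73 in papillomas against healthy skin and at -1.59 and -1.34 against hyperplastic skin.

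Within groups, the libraries rich in miR-451 were also rich in miR-144-5p and miR-486-5p. After subtraction of each group's mean from log2 CPM, Pearson's r over the 20 libraries was 0.93 between miR-451 and miR-144-5p and Spearman's rho was 0.89. The permutation p within groups was 1e-05 for both, the smallest that the 100000 resamples can give (adjusted over 16 relations 0.00016). Without hyperplastic 2 and papilloma 3, the libraries farthest from the median of miR-451, r was 0.92. For miR-451 and miR-486-5p, r was 0.79 and rho 0.82 (permutation p adjusted 0.00536 and 0.00224), with r at 0.74 without the same libraries. For miR-451 and miR-144-3p, r was 0.59 and rho 0.54 (adjusted 0.0276 and 0.0627), with r at 0.54 without them. The sign was positive within each of the 4 groups in all 3 relations. All of these values share the libraries and their scaling factors.

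miR-451 followed the markers of other cell types that were tested with it less closely in size. Its r was 0.24 with miR-133a-3p, which is made in striated muscle (rho 0.22), 0.33 with miR-126-3p of endothelium (rho 0.20) and -0.02 with miR-223-3p of myeloid cells (rho -0.13), with permutation p adjusted of 0.491, 0.344 and 0.955 for r and 0.529, 0.529 and 0.677 for rho. Without the 2 libraries farthest from the median of miR-451 these r were 0.27, 0.36 and -0.21. The muscle miRNA miR-1a-1-5p, which was not among these markers, stood at r 0.55 with miR-451. For miR-486-5p, r was 0.42 with miR-133a-3p (rho 0.31, permutation p adjusted 0.193 and 0.389), and 0.57 without papilloma 3 and healthy 5. miR-486-5p with miR-144-3p, miR-126-3p and miR-223-3p gave r of 0.31, 0.27 and 0.15 and rho of 0.33, 0.19 and 0.09 (permutation p adjusted at least 0.343 for r and 0.314 for rho), and r of 0.27, 0.27 and 0.03 without those libraries. miR-486-3p differed in size from miR-486-5p with miR-451 and miR-133a-3p: its r was 0.21 with miR-451 (rho 0.24, permutation p adjusted 0.491 and 0.529) and 0.66 with miR-133a-3p (rho 0.64, adjusted 0.0276 and 0.0382). With another muscle miRNA, miR-1a-1-5p, r was 0.62 for either arm, so the arms did not differ in size there. The r with miR-133a-3p was 0.64 without papilloma 5 and healthy 5, and it was positive within 3 of the 4 groups and negative within cSCC. Between the 2 arms of miR-486, r was 0.50 (rho 0.45, permutation p adjusted 0.0936 and 0.155) and 0.45 without those libraries. miR-3107-5p followed miR-486-5p at r 0.70 (rho 0.73, permutation p adjusted 0.0126 and 0.00779) and miR-451 at r 0.62 (rho 0.65, adjusted 0.0272 and 0.0302), with r of 0.73 and 0.70 without hyperplastic 7 and cSCC 2. miR-3107-5p and miR-486-5p have the same mature sequence, and how their reads were assigned is not known. The r between them thus cannot be read as a relation between separate miRNAs. Relations of miR-486-3p and miR-3107-5p were chosen after values had been seen, and differences between correlations were not tested.

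**Figure D4:**
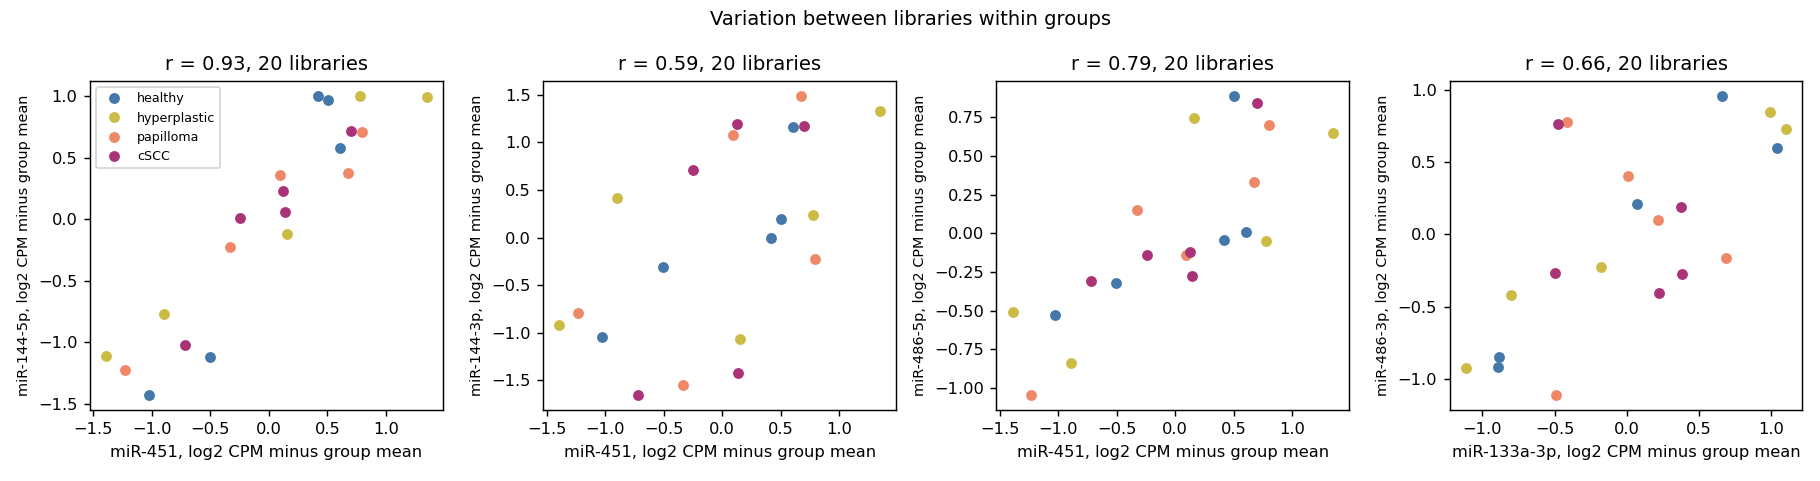
Log2 CPM minus the group mean for each of 20 libraries, coloured by group: miR-144-5p, miR-144-3p and miR-486-5p on the vertical axes against miR-451, and miR-486-3p against the muscle miRNA miR-133a-3p. Libraries line up most closely for miR-144-5p (r = 0.93) and scatter most for miR-144-3p (r = 0.59).

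Those most like miR-451 by this group-centred r over 20 libraries, among the 293 other miRNAs with a mean of at least 50 CPM, were miR-144-5p (0.93), miR-3107-5p (0.62), miR-144-3p (0.59), miR-1a-1-5p (0.55) and miR-5115 (0.55). For miR-486-5p, among 294, they were miR-451 (0.79), miR-144-5p (0.72), miR-3107-5p, which has the same mature sequence (0.70), miR-1a-1-5p (0.62) and miR-1a-2-5p (0.60). For miR-486-3p, asked only after its values were seen, they were miR-378-5p (0.70), miR-133a-3p (0.66), miR-133b-3p (0.66), miR-1a-1-5p (0.62) and miR-1a-2-5p (0.56). miR-1 and miR-133 are miRNAs of striated muscle.

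Striated muscle miRNAs were lower in the same groups as miR-486-3p. Of the 8 on the list, 6 were tested. In papillomas and in cSCC against healthy skin 5 fell and 1 rose, miR-499-5p, whose mean stayed under 5 CPM in each group. Of all tested miRNAs, edgeR called 20.7% lower in papillomas and 21.3% lower in cSCC. The summed level of the list was 1578 to 3656 CPM in cSCC and 1809 to 9264 CPM in papillomas, against 19479 to 78081 CPM in healthy skin, and 16589 to 50573 CPM in hyperplastic skin. The named members in cSCC against healthy skin were miR-133b-3p at -4.67, miR-133a-3p at -4.57, miR-133a-5p at -4.19, miR-1a-3p at -4.08 and miR-206-3p at -2.80 on the log2 scale, all past the threshold (adjusted p at most 0.000666). Summed levels of this list in tumours and in both kinds of skin without tumours did not overlap. No member of it was at 0 in a whole group. Its part in the fall of the miR-486 arms was not tested.

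Some other miRNAs abundant in red cells or blood fell in tumours with TMM factors. Factors from abundant miRNAs moved the median log2 fold change over all miRNAs to 1.09 in papillomas and 1.07 in cSCC against healthy skin. The marker lists, including those of other cell types, were not retested with those factors, so the smaller falls may depend on the scaling. Of 10 listed and tested with edgeR, 3 fell in papillomas and 4 in cSCC against healthy skin, where 20.7% and 21.3% of all tested miRNAs were called lower. The rest did not pass, and the median log2 fold change was -0.33 in papillomas and -0.63 in cSCC, beside 0.40 and 0.35 over all miRNAs. These miRNAs are also made in most other cells. In cSCC against healthy skin miR-16-5p fell by 1.03 ± 0.24, miR-107-3p by 1.02 ± 0.23, miR-106b-5p by 0.85 ± 0.30 and miR-25-3p by 0.70 ± 0.21 (adjusted p 0.00132, 0.000911, 0.0235 and 0.00813). miR-484 stood at -0.26 ± 0.20 (adjusted p = 0.293) and miR-92a-3p at 0.29 ± 0.24 (adjusted p = 0.337). Of 7 miRNAs known to act in red cell maturation, 4 fell in cSCC and 6 in papillomas against healthy skin, where 21.3% and 20.7% of all tested miRNAs were called lower, and the rest did not pass. Their median log2 fold change was -0.67 in cSCC and -0.88 in papillomas, beside 0.35 and 0.40 over all miRNAs. miR-27a-3p fell by 1.24 ± 0.28, miR-24-3p by 1.06 ± 0.23, miR-15a-5p by 0.86 ± 0.22 and miR-191-5p by 0.67 ± 0.26 in cSCC (adjusted p 0.000874, 0.000501, 0.00271 and 0.0337). Also against healthy skin, miR-221-3p stood at 0.55 ± 0.37, miR-222-3p at 0.50 ± 0.33 and miR-155-5p at -0.49 ± 0.42 (adjusted p 0.226, 0.207 and 0.334). Against hyperplastic skin, miR-221-3p and miR-222-3p were higher in cSCC, at 0.94 and 1.16 (edgeR adjusted p 0.044 and 0.00648). They were also higher in cSCC against papillomas, at 1.63 and 1.60 (edgeR adjusted p 0.00595 and 0.00238).

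Markers of other cells that the biopsies could hold did not move as one. In cSCC against healthy skin, of 6 leukocyte miRNAs 1 rose, miR-223-3p of myeloid cells at 1.89 ± 0.36 (adjusted p = 0.000173), and 2 fell, the lymphocyte miRNA miR-150-5p at -2.15 ± 0.40 (adjusted p = 0.000108) and miR-146a-5p at -1.83 ± 0.36 (adjusted p = 0.000232), while miR-142-5p stood at 0.60 ± 0.34 (adjusted p = 0.143), where 47.5% of all tested miRNAs were called and 21.3% were called lower. In papillomas against healthy skin 3 of the 6 fell, miR-150-5p at -1.17 ± 0.39, miR-142-5p at -1.05 ± 0.34 and miR-146a-5p at -0.93 ± 0.35 (adjusted p 0.0176, 0.0169 and 0.0351), where 20.7% of all were called lower. Both endothelial arms fell in cSCC against healthy skin, miR-126-3p by 1.30 ± 0.32 and miR-126-5p by 1.08 ± 0.25 (adjusted p 0.00179 and 0.00105). The keratinocyte miRNAs miR-203-3p and miR-205-5p fell there too, at -1.83 ± 0.26 and -0.69 ± 0.24 on the log2 scale (adjusted p 4.3e-06 and 0.021). The summed level of the 5 miR-451, miR-144 and miR-486 entries mostly repeats miR-451, which held at least 92.9% of their counts in each library. The sum was 2907 to 7935 CPM in cSCC and 2743 to 11018 CPM in papillomas, within or around the 2265 to 7029 CPM of healthy skin. In hyperplastic skin it was 1945 to 12738 CPM. As a share of all mature miRNA counts, with no TMM factor, the sum averaged 0.532% ± 0.198 in cSCC, 0.907% ± 0.403 in papillomas and 0.572% ± 0.366 in hyperplastic skin, against 0.411% ± 0.185 in healthy skin (SD, n = 5 each), and the ranges overlapped.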

How the data were processed

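Per the labels' protocols, RNA was isolated with a Qiagen miRNeasy kit, and NEBNext libraries for SOLiD were size-selected on gels. The table the authors deposited holds raw read counts of each small RNA in each library. The build was mm9 per the submitters' processing notes. The sources used here do not give the aligner, the counter, the annotation or the handling of strand and of reads with several matches. Columns were matched to samples by title.

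Counts of the 1137 mature miRNAs were filtered with filterByExpr by group (at least 15 counts in all and 10 at the median library size), scaled with TMM factors (0.637 to 1.67) and tested in R 4.3.3 by edgeR 4.0.16 with limma 3.58.1 in 1 model with 4 group terms, two-sided, with Benjamini-Hochberg adjustment over 850 miRNAs and a threshold of 0.05. DESeq2 1.42.0 was an alternative. Other alternatives were DESeq2 size factors, total counts, factors from abundant miRNAs, library sizes without the 5 most abundant miRNAs, no filter, abundant miRNAs alone, only the 2 groups compared, the replicate number as a block, a ratio pseudocount of 1, and leaving out each library. The fit was tested on simulated data. Ratios used a pseudocount of 0.5 counts and exact permutation. Relations used log2(CPM + 0.5) and 100000 permutations within groups. SciPy 1.17.1, NumPy 2.4.6 and Python 3.11.15 were used.

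The members and the marker lists were chosen with earlier results of these data known. Named miRNAs were every member, the most abundant and called miRNAs of each list, and the 5 most alike by r. miR-3107, the added ratios and the added relations were chosen after values were seen. The sequence tables gave no entry for the miR-486 arms.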

Additional observations from a re-analysis of the deposited data

Results flagged for a closer look

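In 28 groups of 5 libraries (each member's CPM and the 2 planned ratios in the 4 groups), 2 held a library apart from the others by more than 0.71 of the group's range, Dixon's limit for 5 values, which chance passes in about 1 group in 20. Both concerned miR-486-5p. Its level was 23.3 CPM in healthy 5, where the gap to the next library was 0.729 of the range, and 9.32 CPM in cSCC 1, where the gap was 0.886 of the range. Both are the highest of their group. These are 73 counts in healthy 5 and 25 in cSCC 1. Without healthy 5, the log2 fold change of miR-486-5p in cSCC against healthy skin was -1.002 with an adjusted p of 0.0514, against -1.31 and 0.0103 with all libraries. Without cSCC 1 it was -1.61 with an adjusted p of 0.00467.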

How the results depend on the processing

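Depth limits the miR-486 arms most, at 6 to 171 counts a library, and 5 libraries a group limit every ratio test. The counting of reads shared by miR-486 and miR-3107 is not known. Apart from leaving out libraries, 304 recomputed values kept direction and side of the threshold and 23 changed sign. The cause of the changes below was not tested. The members called across the 4 groups were 2, against 1, with the DESeq2 test, DESeq2 size factors, factors from abundant miRNAs, library sizes without the 5 most abundant, no filter, the replicate block and total counts. These counts take rises and falls together. In cSCC against healthy skin the count was 1 in place of 2 with abundant miRNAs alone, factors from them and the added miR-3107 arms. With factors from abundant miRNAs that 1 was miR-144-5p, which was higher. With the added miR-3107 arms it was miR-486-3p, which was lower. In cSCC against hyperplastic skin it was 0 in place of 1 with abundant miRNAs alone, factors from them and the replicate block, and 2 without a filter. In papillomas against healthy skin it was 3 in place of 1 with factors from abundant miRNAs and total counts, and 2 with abundant miRNAs alone, only the 2 groups and the replicate block. In papillomas against hyperplastic skin it was 0 in place of 1 with abundant miRNAs alone and the replicate block. The miR-486 arms have no value among abundant miRNAs alone.

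Same-numbered libraries were hardly alike: of 17 such pairs, 2 correlated above 0.1, with a range of -0.16 to 0.21. The labels do not say whether equal numbers mark the same mouse, and these correlations, which were not tested, cannot settle it. With the replicate block miR-486-3p missed the threshold against hyperplastic skin, at -1.47 in papillomas (adjusted p = 0.12) and -1.12 in cSCC (adjusted p = 0.16), and miR-144-5p passed against healthy skin at 1.57 in cSCC (adjusted p = 0.00987) and 1.18 in papillomas (adjusted p = 0.0447). The block also turned miR-451 to 0.56 in cSCC against hyperplastic skin and -0.22 in hyperplastic against healthy skin, miR-144-3p to 0.12 in cSCC against papillomas and miR-486-5p to 0.38 in papillomas against hyperplastic skin.

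Other values that changed sign were all short of the threshold. miR-451 in cSCC against healthy skin was -0.14 with the DESeq2 test and with its size factors, -0.068 without the 5 most abundant, -0.0015 with added miR-3107 arms and -0.27 without a filter. miR-451 in cSCC against hyperplastic skin was 0.34 with abundant miRNAs alone or factors from them. In papillomas against hyperplastic skin it was -0.031 without the 5 most abundant and -0.29 without a filter. Without a filter miR-144-3p was -0.20 in cSCC and -0.11 in papillomas against hyperplastic skin. Total counts gave miR-144-5p -0.27 in cSCC against papillomas, miR-486-3p 0.087 in hyperplastic against healthy skin, and miR-486-5p 0.092 and 0.41 in papillomas against healthy and hyperplastic skin. Factors from abundant miRNAs gave the last pair 0.12 and 0.55, and a fit of only the 2 groups gave 0.064 against hyperplastic skin. miR-486-3p in cSCC against papillomas was -0.24 with added miR-3107 arms.

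Leaving out 1 library at a time, miR-451 ran from -0.20 to 0.18 in cSCC against healthy skin, -0.69 to 0.23 in cSCC against hyperplastic, -0.20 to 0.59 in hyperplastic against healthy and -0.28 to 0.65 in papillomas against hyperplastic skin. miR-144-3p ran from -0.18 to 0.76 in cSCC against hyperplastic, -0.41 to 0.42 in cSCC against papillomas, -0.30 to 0.62 in hyperplastic against healthy, -0.030 to 0.94 in papillomas against healthy and -0.22 to 0.85 in papillomas against hyperplastic skin. miR-144-5p ran from -0.19 to 0.30 in cSCC against papillomas, miR-486-3p from -0.44 to 0.049 in hyperplastic against healthy skin and miR-486-5p from -0.44 to 0.14 in papillomas against hyperplastic skin. The ratio of miR-144-3p to miR-451 ran from -0.17 to 0.49 and -0.26 to 0.44 in cSCC minus healthy and minus hyperplastic, -0.12 to 0.58 in cSCC minus papilloma, -0.28 to 0.36 in hyperplastic minus healthy, and -0.34 to 0.22 and -0.45 to 0.19 in papilloma minus healthy and minus hyperplastic. The ratio of miR-486-5p to miR-451 ran from -1.48 to -1.21 in cSCC and -1.21 to -0.95 in papillomas minus healthy. The members called ran from 1 to 2 across the 4 groups, in cSCC against hyperplastic and in papillomas against healthy skin.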
